A study of Mus musculus with 8 samples.

Results

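The sperm tail and head cytoskeleton genes described here are 10 genes listed by name, with no threshold on a measured value, although earlier results of these data were known when they were listed: Odf1, Odf2, Akap3, Cabyr, Crisp2, Actl7a, Actl7b, Spag6, Spag16 and Spag17. They are 10 of 21887 protein-coding genes on the autosomes and sex chromosomes of the reference table, and all 10 symbols were found in it. The study mapped H2A.Z, a variant of histone H2A, by chromatin immunoprecipitation and sequencing in dissociated testis cells of mice on postnatal day 14. Its 8 libraries form 4 groups of 2 biological replicates: H2A.Z immunoprecipitates and their inputs from Control testes, and both kinds from testes whose genotype is labelled Znhit1-CKO and called Znhit1-sKO in the protocol. The strain, the Cre driver and the cells it acts in, and whether animals were pooled are not given in those sources. The deposited files hold 1 list of peaks for each genotype and 1 list of differential regions. The regions come from the authors' own comparison of Znhit1-CKO with Control, labelled with the tool name EdgeR. Their statistics and sign are not given. Every value below is a position or a width without replicate error, and no difference was tested here across animals. The cells came from whole testis, so fewer cells of a type and less H2A.Z per cell cannot be told apart.

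ZNHIT1 is a subunit of SRCAP, the remodelling complex that swaps H2A for H2A.Z in nucleosomes, mostly in those that flank the starts of genes. The 10 genes build the sperm tail and head. Outer dense fibres stiffen the tail, the fibrous sheath carries signalling and metabolic enzymes along the principal piece, the central apparatus of the axoneme regulates the beat, and actin-related proteins lie between the acrosome and the nucleus. Most of these proteins are made in spermatids, which the first wave of spermatogenesis has not yet formed at this age. The most advanced cells of the first wave are then spermatocytes in meiotic prophase.

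In Control testes 8 of the 10 genes had an H2A.Z peak within 1 kb of a gene end, where 67.7% of all protein-coding genes had one. The exceptions were Akap3 and Actl7a. In the Znhit1-CKO list 4 of these 8 genes had no peak at either end: Odf1, Crisp2, Actl7b and Spag17. Of all genes with a control end peak, 11.5% were lost in this sense. The other 4, Odf2, Cabyr, Spag6 and Spag16, still had an end peak. A differential region lay at an end of 6 of the 8 genes, against 62.8% of all genes with a control end peak, a share near that background. At 3 of the 8, Odf1, Crisp2 and Actl7b, the end peak was lost and a differential region was present. The share was 6.77% over all genes with a control end peak. The deposited regions carry no sign, so the direction of the difference at a region is not given. Neither Akap3 nor Actl7a, the only members that could gain an end peak, had one in the Znhit1-CKO list.

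**Figure D1:**
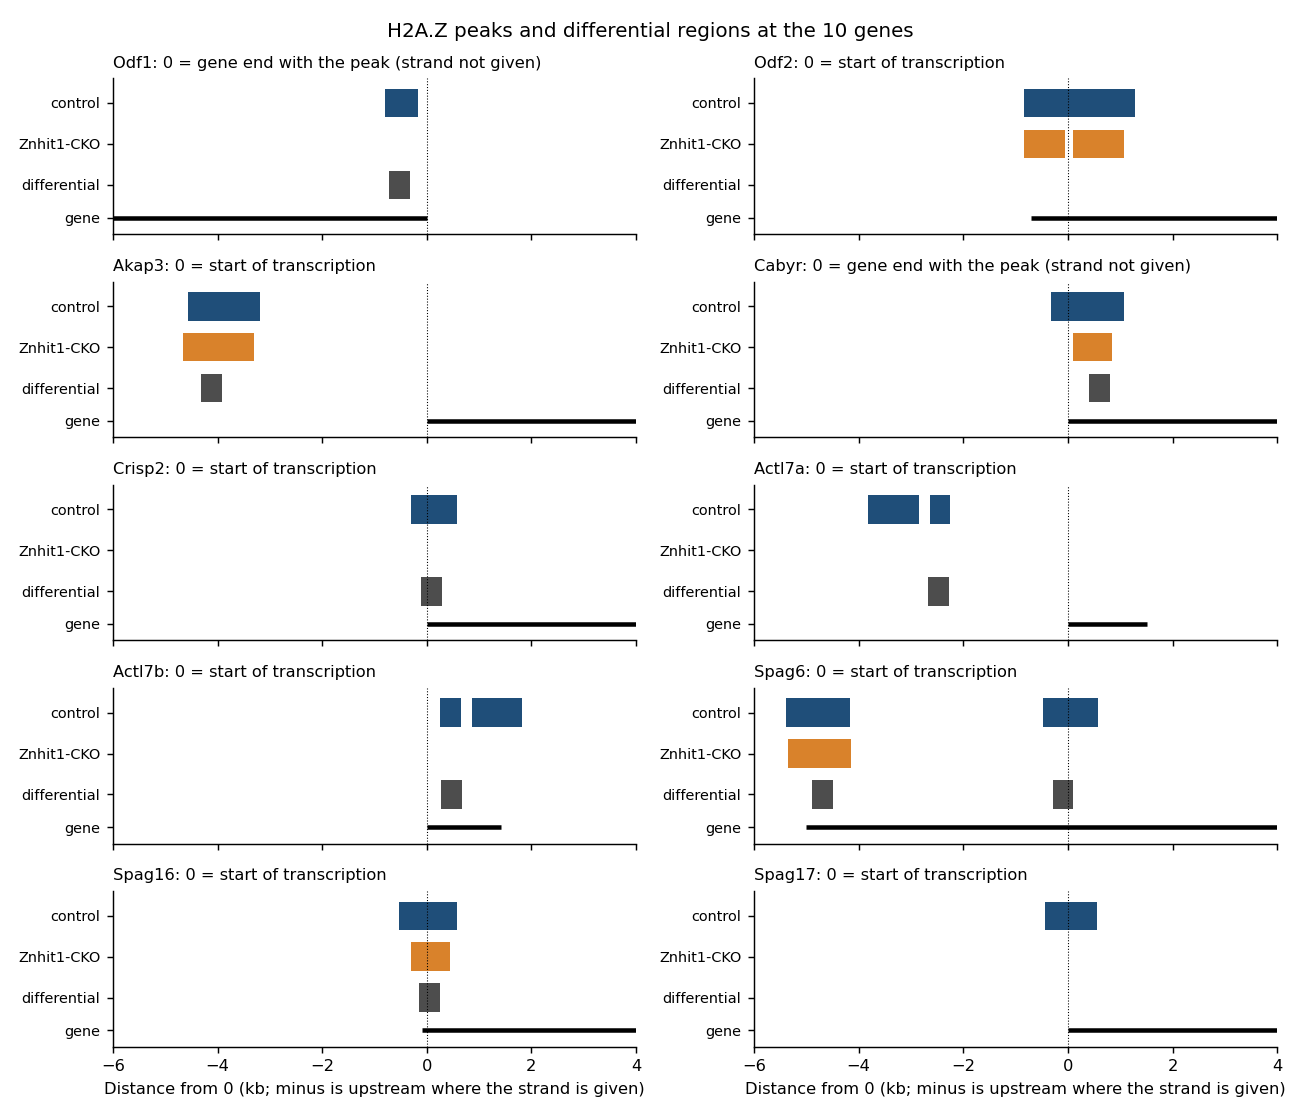
Control peaks (blue), Znhit1-CKO peaks (orange), differential regions (grey) and the gene span (black line) at the 10 genes; the x axis is the distance in kb from the first listed start of transcription, or from the gene end with the peak at Odf1 and Cabyr. No orange bar lies over the control peaks of Odf1, Crisp2, Actl7b and Spag17, and at Spag6 the upstream peak is in both lists while the one over the listed start is in the control list only.

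RefSeq promoter windows of GRCm38.p6, the build whose primary coordinates are those of mm10, were matched for 8 of the 10 genes, all but Odf1 and Cabyr. A window gives the strand and runs from 250 bases before a start of transcription to 50 after it. The 250 bases before the start are shown for 7 genes, whose windows were of 3 kinds by peak list. A control peak that was lost covered the first 3 (Crisp2, Spag6, Spag17), a peak of both lists covered Spag16, and no peak of either list reached the window of Actl7b, Actl7a or Akap3. Capitals mark CG dinucleotides and any copy of the 8 letters TGATGTCA or their reverse complement TGACATCA. Each sequence is written 5′ to 3′ on the strand of its gene.
Crisp2, chr17:40794147-40794396, minus strand: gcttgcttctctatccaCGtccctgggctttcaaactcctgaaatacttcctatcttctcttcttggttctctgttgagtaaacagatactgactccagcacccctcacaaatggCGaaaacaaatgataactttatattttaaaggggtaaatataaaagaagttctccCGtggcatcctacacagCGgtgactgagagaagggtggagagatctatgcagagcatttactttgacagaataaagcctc
Spag6, chr2:18698772-18699021, plus strand: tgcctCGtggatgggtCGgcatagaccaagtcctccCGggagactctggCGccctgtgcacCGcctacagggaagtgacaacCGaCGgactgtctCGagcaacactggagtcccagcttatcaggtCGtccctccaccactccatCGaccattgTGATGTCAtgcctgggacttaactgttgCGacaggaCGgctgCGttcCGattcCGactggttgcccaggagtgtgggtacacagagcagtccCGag
Spag17, chr3:99885167-99885416, plus strand: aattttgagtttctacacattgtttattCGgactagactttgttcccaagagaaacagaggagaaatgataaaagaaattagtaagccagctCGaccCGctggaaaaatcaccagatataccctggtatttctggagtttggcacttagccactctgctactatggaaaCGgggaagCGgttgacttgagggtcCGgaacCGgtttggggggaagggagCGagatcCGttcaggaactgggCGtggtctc
Spag16, chr1:69826720-69826969, plus strand: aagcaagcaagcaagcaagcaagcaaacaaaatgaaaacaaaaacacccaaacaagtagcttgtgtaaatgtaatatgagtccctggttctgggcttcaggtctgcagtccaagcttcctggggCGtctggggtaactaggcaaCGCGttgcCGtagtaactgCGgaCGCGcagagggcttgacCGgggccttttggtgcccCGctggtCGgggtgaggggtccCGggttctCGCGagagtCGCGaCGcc
Actl7b, chr4:56741426-56741675, minus strand: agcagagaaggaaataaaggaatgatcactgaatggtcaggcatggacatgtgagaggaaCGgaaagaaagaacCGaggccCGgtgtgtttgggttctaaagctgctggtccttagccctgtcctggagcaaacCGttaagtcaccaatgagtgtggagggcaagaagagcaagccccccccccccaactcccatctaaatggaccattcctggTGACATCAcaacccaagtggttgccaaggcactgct
Actl7a, chr4:56743172-56743421, plus strand: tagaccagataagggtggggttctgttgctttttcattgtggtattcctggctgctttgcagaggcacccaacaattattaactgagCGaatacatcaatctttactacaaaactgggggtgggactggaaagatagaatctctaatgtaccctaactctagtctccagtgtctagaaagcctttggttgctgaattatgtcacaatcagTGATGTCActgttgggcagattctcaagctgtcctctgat
Akap3, chr6:126852848-126853097, plus strand: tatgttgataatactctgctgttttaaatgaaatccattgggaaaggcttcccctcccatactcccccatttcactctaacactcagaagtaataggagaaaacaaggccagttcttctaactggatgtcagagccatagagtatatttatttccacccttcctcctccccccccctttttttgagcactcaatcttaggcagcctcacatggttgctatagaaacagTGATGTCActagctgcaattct

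The windows without a peak were poor in CG. CpG observed over expected, which is the number of CG dinucleotides relative to that predicted from the C and G content, was 0 at Akap3, 0.137 at Actl7a and 0.199 at Actl7b. All 3 lay in the lowest of 4 equal groups of 21263 windows of protein-coding genes, of which 6.36% had a control peak. The windows that lost their peak were richer in CG, at 0.662 in Spag17, 0.677 in Crisp2 and 0.883 in Spag6. These values are for the full 300 bp windows. The Crisp2 window held 11 CG, of which 4 lie in the stretch shown, and the stretch shown for Actl7b also has 4. Spag16 had 0.800, and the 4 windows of Odf2 had 0.806 to 1.04. Spag6, with the highest value of the lost windows, lay above Spag16 and above the lowest Odf2 window. Over all windows the median was 0.787 where both lists had a peak, 0.519 where only the control list did and 0.176 where neither did. In the group that holds Crisp2, Spag17 and Spag16 (0.567 to 0.827), 9.50% of the windows with a control peak had no Znhit1-CKO peak, and in the group of Spag6 4.69%.

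**Figure D2:**
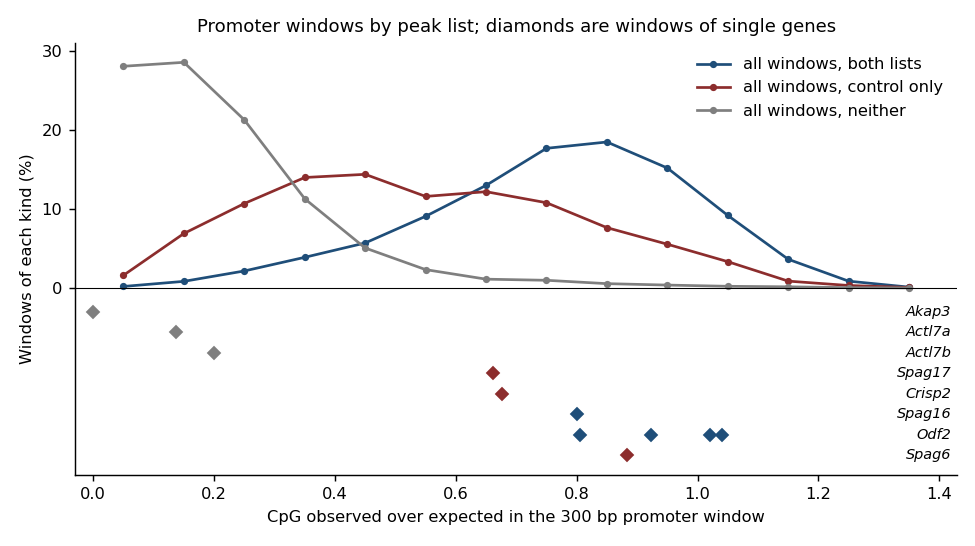
CpG observed over expected in 300 bp promoter windows: lines give, within each kind of window (blue peak in both lists, red control only, grey neither), the percentage of its windows in steps of 0.1, and diamonds the windows of the 8 genes in the same colours. The red diamonds of Spag17, Crisp2 and Spag6 sit at 0.662 to 0.883, among or beside the blue ones of Spag16 and Odf2, and the grey ones of Akap3, Actl7a and Actl7b at 0 to 0.199.

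The motifs searched on both strands were the cyclic AMP response element TGACGTCA, its short form TGACG (which lies within it), the MYB core AACTG or AACGG, the X-box core GTTGCC and the CCAAT box CCAAT. No member window held the full TGACGTCA, which is in 2.23% of all windows, and only Odf2 windows held the short form (23.6% of all). MYB cores were in every window of the 8 genes with one except that of Crisp2, and in 53.6% of all windows. The X-box core, part of the site of RFX factors, which regulate cilium genes, was in the windows of Actl7b, Spag6 and Spag16, and in 12.6% of all. The CCAAT box was in windows of Odf2, Akap3 and Actl7b, and in 38.2% of all. The variant TGATGTCA was added after the sequences had been read. It was present at 4 of the 8 genes, Akap3, Actl7a, Actl7b and Spag6, and in 3.66% of all windows. Its first base lay 40 bases before the start in Actl7a, 36 in Actl7b, 96 in Spag6, and 22 and 1 in Akap3, where the second copy runs across the start and is not in the stretch shown. Among all windows it was in 7.45% of those without a peak, 2.03% of those with a control peak only and 1.40% of those with a peak in both lists. A match says only that the letters are there.

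Outer dense fibre genes. Odf1 encodes a main protein of the outer dense fibres that also ties the head to the tail. The gene spans chr15:38219203-38226735. Its only control peak was 646 bp wide (chr15:38225930-38226575) and lay inside the gene, between 805 and 160 bp from the end with the higher coordinate. No Znhit1-CKO peak overlapped it, and the nearest one in that list was 17.2 kb from the gene. One differential region (chr15:38226011-38226410) lay wholly on the peak. The tables used give no strand for Odf1, so whether this end is the start of transcription is not stated here. The peak was narrow: only 7.37% of genes with a control end peak had a narrower widest peak.

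Odf2 encodes another outer dense fibre protein, and the same gene serves the centrosome and the base of cilia in other cells. It spans chr2:29889014-29931746 on the plus strand. Its control peak was the widest of the 10 genes, at 2128 bp (chr2:29888871-29890998), wider than at 90.1% of genes, and covered all 4 starts listed for the gene. In the Znhit1-CKO list 2 peaks of 784 and 967 bp lay on it and together covered 82.3% of its bases. The 156 bases between them held 2 of the 4 listed starts. No differential region lay on the gene, and the nearest was 33.4 kb away. The call that Odf2 kept its peak depended on how overlap was counted: neither of the 2 pieces shared 50% of the bases of both peaks with the control peak, and by that rule Odf2 was lost, as were 23.4% of all genes with a control end peak.

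Fibrous sheath genes. Akap3 encodes an anchor that holds protein kinase A in the fibrous sheath. Neither list had a peak within its span of 21211 bp (chr6:126853098-126874308) or 1 kb beyond. The nearest control peak, 1390 bp wide, began 3.18 kb away at Ndufa9, a gene of mitochondrial complex I. It had a Znhit1-CKO counterpart of 1350 bp and a differential region.

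Cabyr encodes a calcium-binding protein of the sheath that is phosphorylated on tyrosine during capacitation. It spans chr18:12740825-12755146, with no strand in the tables used. Its control peak of 1387 bp (chr18:12740505-12741891) crossed the end with the lower coordinate. The Znhit1-CKO peak was 742 bp wide and lay inside the control peak, short of it by 415 bp on the lower side and 230 bp on the upper side. It covered 53.5% of the control peak, with a differential region on the part that both lists share. Over all genes with control bases in the span or within 1 kb of it, Znhit1-CKO bases, overlapping or not, had a median of 77.0% of control bases. By that measure 26.7% of genes lay below Cabyr. The end of a pseudogene, Gm7599, also lay within 1 kb of the Cabyr peak.

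Crisp2. Crisp2 encodes a cysteine-rich secretory protein found in the acrosome and in the outer dense fibres. It spans chr17:40764734-40794146 on the minus strand. Its control peak of 884 bp (chr17:40793560-40794443) ran from 297 bp before the start of transcription to 586 bp after it. No Znhit1-CKO peak overlapped it, and the nearest was 85.7 kb from the gene. A differential region lay on the peak, from 103 bp before the start to 296 bp after it. Of the 4 lost genes, Crisp2 alone had both a lost peak and a differential region across a listed start, with no start listed for Odf1. Crisp1 and Crisp3, which lie on the same chromosome, and Crisp4 are the other secretory members of the family, and none had a peak in either list in its span or 1 kb beyond.

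Actin-related genes. Actl7a and Actl7b encode actin-related proteins of the spermatid head, and Actl7a is needed to attach the acrosome to the nucleus. The genes are neighbours on chromosome 4, head to head, with 1997 bp between their starts. Actl7a (chr4:56743422-56744925, plus strand) had no peak in either list. Actl7b (chr4:56740005-56741425, minus strand) had 2 control peaks. The first, 385 bp wide (chr4:56740780-56741164), lay within the gene, 261 to 645 bp after the start. The second, 970 bp wide (chr4:56739599-56740568), crossed the far end of the gene, 857 to 1826 bp after the start. Neither overlapped a Znhit1-CKO peak, and the nearest was 19.3 kb from Actl7b. The only differential region lay on the narrower peak, with 374 of its 400 bases, so the wider of the 2 lost peaks carried none. The starts of both genes, and the stretch between them, were free of peaks in both lists.

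Central apparatus genes. Spag6, Spag16 and Spag17 encode proteins of the central pair of microtubules and its projections, the mouse counterparts of the Chlamydomonas proteins PF16, PF20 and PF6. Their H2A.Z peaks differed. Spag17 (chr3:99885417-100143322, plus strand) had a control peak of 981 bp over its start (chr3:99884985-99885965), from 432 bp before it to 548 bp after it, and a second of 422 bp deep in the gene. Neither overlapped a Znhit1-CKO peak, and the nearest one was 18.3 kb beyond the gene, at Wdr3 and Gdap2. Spag17 alone of the 4 lost genes had no differential region.

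Spag16 spans 898261 bp (chr1:69826872-70725132, plus strand). The peak over its start was 1116 bp wide in the control list (chr1:69826442-69827557) and 748 bp in the Znhit1-CKO list, which covered 67.0% of it. The Znhit1-CKO peak was short by 228 bp on the upstream side and by 140 bp on the downstream side, and a differential region lay over the start. Of 4 other control peaks, 3 lay inside the gene (287 to 597 bp wide) and 1 of 425 bp lay beyond its far end, near an end of Vwc2l. None of the 4 overlapped a Znhit1-CKO peak, and the last had a differential region. One Znhit1-CKO peak of 360 bp inside the gene had no control counterpart.

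Spag6 (chr2:18694011-18749746, plus strand) had 2 control peaks that fared differently. The first, 1226 bp wide (chr2:18693627-18694852), lay over the lower end of the gene span. The Znhit1-CKO list had a peak of 1208 bp there, which covered 96.2% of it. The second, 1037 bp wide (chr2:18698553-18699589), lay over the start listed in the promoter table, 5011 bp inside the span. It ran from 469 bp before that start to 567 bp after it, and no Znhit1-CKO peak overlapped it. Each of the 2 peaks carried a differential region. The first shows that a differential region can lie on a peak that hardly changed in width. By gene ends Spag6 kept its peak, and by the listed start it was lost. Spag6l on chromosome 16 is a close copy of Spag6, named here for that reason, and how reads that match both copies were placed is not stated in the labels. At the Spag6l start a control peak of 870 bp had a Znhit1-CKO counterpart of 813 bp.

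With the listed starts in place of gene ends, a control peak lay within 1 kb of a start at 6 of the 8 genes with a listed start, against 67.7% of 17492 protein-coding genes. It was lost at 4 of the 6 (Crisp2, Actl7b, Spag6 and Spag17), where 9.68% of all genes with a control peak at a start lost it. A differential region lay there at 4 of the 6 (Crisp2, Actl7b, Spag6 and Spag16), beside 64.2% of all. The 2 that kept a start peak were Odf2 and Spag16. The peaks over the starts of Spag17, Spag6 and Spag16 were centred 58, 49 and 30 bp after the start and had similar widths in control, 981, 1037 and 1116 bp, yet only that of Spag16 was in both lists.

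Across whole gene spans with 1 kb on either side, the 10 genes held 15 control peaks and 6 Znhit1-CKO peaks. No Znhit1-CKO base lay on 11 of the 15, which were 6 of the 10 peaks at gene ends and all 5 peaks away from them. Over all control peaks, 2723 of the 15147 within 1 kb of a protein-coding gene end had no Znhit1-CKO base, and 7442 of the 12176 (61.1%) that lay in a gene span away from the ends, so absence was the more common state for peaks of the latter kind. Each of the 8 differential regions shared bases with a control peak, and 6 lay wholly on one. Control peaks covered 12792 bp and Znhit1-CKO peaks 4809 bp. Znhit1-CKO bases came to 0 at Odf1, Crisp2, Actl7b and Spag17, and to 40.6% of the control bases at Spag16, 53.4% at Spag6, 53.5% at Cabyr and 82.3% at Odf2. The median over these 8 genes was 20.3%, beside 77.0% over 16401 protein-coding genes with control bases, of which 10.0% had no Znhit1-CKO base. Odf2 alone lay above that median.

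**Figure D3:**
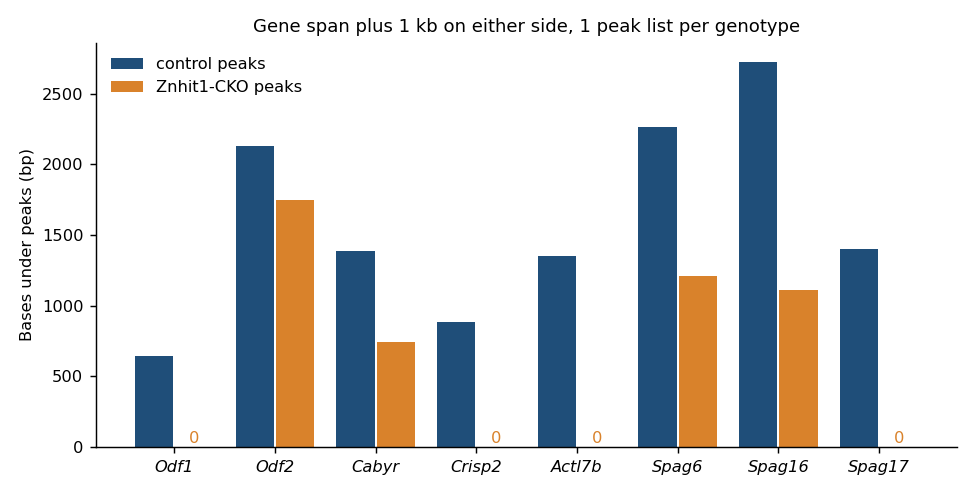
Bases under control peaks (blue) and Znhit1-CKO peaks (orange) in the gene span with 1 kb on either side, for the 8 genes with a peak; each bar is 1 value from 1 list. The orange bar is 0 at 4 genes and shorter than the blue one at the other 4.

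Width moved with loss at these genes. The widest control end peaks of the 4 lost genes measured 646 bp (Odf1), 884 bp (Crisp2), 970 bp (Actl7b) and 981 bp (Spag17), and those of the 4 others 1116 bp (Spag16), 1226 bp (Spag6), 1387 bp (Cabyr) and 2128 bp (Odf2), so the 2 sets did not overlap. The median of the 8 was 1048 bp, below the 1429 bp of all genes with a control end peak. All 4 lost genes fell in the narrowest of 4 equal groups of genes (205 to 1106 bp), where 37.3% of all genes were lost and 50.7% had a differential region. Spag16, Spag6 and Cabyr fell in the next group (1107 to 1429 bp), where 5.04% were lost, and Odf2 in the widest, where 1.76% were. The part of peak width in the losses was not tested. At none of the 8 genes did the widest end peak lie near an end of another protein-coding gene, as it did at 24.9% of all genes with a control end peak. Genes without such a neighbour lost their peak in 13.6% of cases and those with one in 5.40%.

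**Figure D4:**
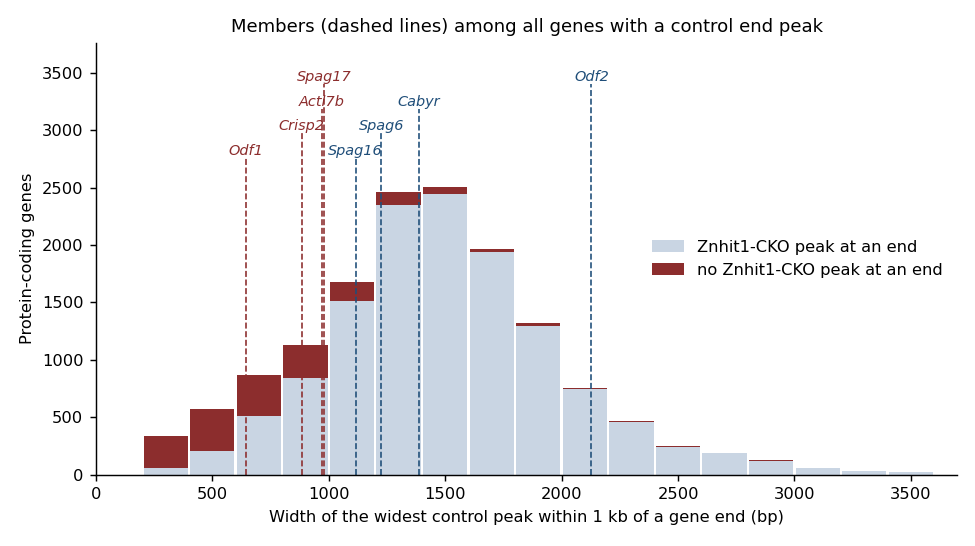
Number of protein-coding genes (y axis) by the width in bp of their widest control end peak (x axis, steps of 200 bp, 60 genes of 3600 bp or more not drawn), with genes that had a Znhit1-CKO end peak in light blue and those that had none in dark red. Dashed lines mark 8 members: the 4 lost ones (red) lie at 646 to 981 bp and the 4 others (blue) at 1116 to 2128 bp.

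A list of 47 related genes of the same structures, chosen by function with earlier results of these data known, was described in the same way. Of these, 27 had a control end peak (67.7% of all genes), 2 of the 27 had lost it (11.5% of all genes with one) and 14 of the 27 had a differential region at an end (62.8% of all genes with one). Whether the related genes differ from the members was not tested. Among central apparatus genes 9 of 11 had a control end peak, 0 of the 9 were lost and 7 of the 9 had a differential region, beside 11.5% and 62.8% of all genes with a control end peak. Hydin, which builds a central pair projection, had end peaks of 1111 and 1056 bp in control and Znhit1-CKO. Cfap46, Cfap70 and Cfap221 are all central apparatus proteins. Their widest end peaks were 1834 and 1195 bp, 1426 and 1446 bp, and 1468 and 358 bp. The Cfap221 pair lay near an end of another protein-coding gene, with its control peak 9616 to 11083 bp before the listed start. Over that start a control peak of 739 bp had a Znhit1-CKO counterpart of 791 bp.

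Among fibrous sheath genes 5 of 7 had a control end peak (67.7% of all genes) and 0 of the 5 were lost (11.5% of all genes with one). These background shares also stand beside the counts of the other groups below. In groups this small a count of 0 lost genes is near that background. The pair of widths was 1071 and 1010 bp at Fsip1 and 971 and 303 bp at Fsip2. At Ropn1l, a partner of the sheath anchors, it was 1589 and 1754 bp. It was 1217 and 1100 bp at Gapdhs (the sperm form of glyceraldehyde-3-phosphate dehydrogenase). The Gapdhs pair lay near an end of another protein-coding gene, with its control peak 9335 to 10551 bp after a listed start. No control peak lay within 1 kb of a listed Gapdhs start. Akap4, the main anchor of the sheath and X-linked, had no peak in either list, as Akap3 had none. Of the outer dense fibre relatives 3 of 6 had a control end peak and 0 were lost: Odf2l (2020 and 2002 bp), Odf3b (1562 and 720 bp) and Odf3l2 (417 and 399 bp). Of 5 further CRISP genes only Crispld1 and Crispld2 had one (1106 and 958 bp, 974 and 710 bp), and neither was lost.

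Of 10 actin-related and perinuclear theca genes of the sperm head 3 had a control end peak, beside 67.7% of all genes. Of the 3, 1 was lost, beside 11.5% of all genes with one. This was Actl9, an actin-related gene like Actl7b, whose control peak of 296 bp had no differential region. Actrt3 kept its end peaks. The control peak of 967 bp over its start had a Znhit1-CKO counterpart of 386 bp. A second control peak of 499 bp had one of 461 bp. Ccin, the gene of calicin in the theca, counted as kept because a Znhit1-CKO peak of 427 bp lay upstream, while its control peak of 1350 bp inside the gene had no counterpart. Of 8 manchette and head-tail coupling genes 5 had a control end peak and 1 of the 5 was lost, beside the same 67.7% and 11.5%. The lost peak was that of Pmfbp1 (381 bp, with a differential region), a protein of the head-tail junction. Hook1 and Spag4 kept theirs, at 1494 and 1232 bp, and 1303 and 1202 bp. At 7 of the 27 related genes, Cfap221, Gapdhs and Odf3l2 among them, the widest end peak lay near an end of another protein-coding gene. None of the 7 was lost, beside 5.40% of all genes with such a neighbour.

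**Figure D5:**
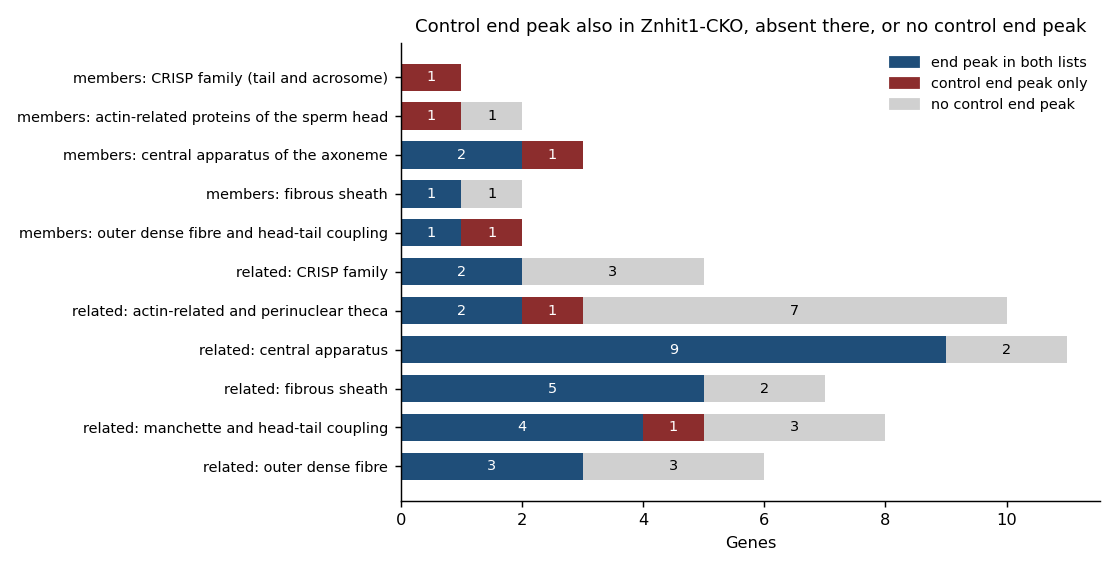
Number of genes (x axis) of each structural group, for the 10 members and the 47 related genes, with an end peak in both lists (blue), in the control list only (dark red) or with no control end peak (grey). Dark red covers 4 of 8 members with a control end peak and 2 of 27 related genes with one.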

How the data were processed

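H2A.Z immunoprecipitates and inputs of Control and Znhit1-CKO testes (2 libraries each) were sequenced to over 30000000 reads per library, per the labels' protocols. The depth behind a peak is unknown, since the files hold no counts. The submitters' processing notes name build mm10 and the tools MACS2 2.2.4, BWA 0.7.17, cutadapt 2.5, Picard 2.20.7 and SAMtools 1.9. The authors deposited 48752 control peaks, 31156 Znhit1-CKO peaks and 24367 differential regions as chromosome, start and end only. The regions, labelled EdgeR and Znhit1-CKO against control, are 400 bp wide except for 5. The thresholds, any pooling of replicates and the sign of a region are not given in the labels. Whether a peak left the list through lower signal, higher background or lower depth was not tested.

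Gene spans were taken from RefSeq genes of GRCm38.p6, and starts and strands from its promoter table. Neither gives exons or introns. Peaks overlapping by 1 bp or more counted as shared. Positions count from 1. A gene counted as lost where a control peak and no Znhit1-CKO peak lay within 1 kb of either end. Members and related lists were chosen with earlier results of these data known. All members are named, with up to 4 related genes per role that had a control end peak, lost ones first, in order of symbol. The values of 1 related gene that this rule names are not reported here. Window, minimum width and overlap were varied, and starts were used after seeing the data. Peak sharing and gene states were checked against bedtools and on simulated data. No test was made here, since each genotype has 1 list of peaks. Python 3.11.15, numpy 2.4.6, pandas 2.3.3 and matplotlib 3.10.9 were used.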

Additional observations from a re-analysis of the deposited data

How the results depend on the processing

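No paired analysis was possible because each genotype has a single list without replicate values, which also left no replicate to leave out. The counts of 8 genes with a control end peak, 4 lost and 6 with a differential region were the same with windows of 500 bp and 2 kb and with peaks of at least 500 bp. Over all 21887 protein-coding genes, 14266, 15466 and 14206 had a control end peak in these settings, in that order. Of these genes, 12.2%, 11.4% and 14.5% were lost, and 59.3%, 66.1% and 64.4% had a differential region. Where a Znhit1-CKO peak had to share 50% of both peaks, 5 were lost, Odf2 in addition, and 23.4% of all genes in place of 11.5%. At listed starts, an alternative chosen after seeing the data, 4 of 6 were lost, with Spag6 added and Odf1 without a listed start. Of all genes with a control peak at a start, 9.68% lost it. Of 58 states of single genes under alternatives, these 2 changed (Odf2 and Spag6). The 58 include the states of Akap3 and Actl7a, which had no control peak in any setting and so could not change. Znhit1-CKO bases as a percentage of control bases had a median of 20.3%. That median was 24.3% at gene ends only and 21.8% with peaks of at least 500 bp. The last setting leaves out the narrow peaks inside Spag16. At gene ends only, Spag6 moved from 53.4% to 98.5%.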

Other observations

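Peaks inside related genes, chosen after their values were seen, were also uneven between the lists. Pmfbp1, needed to join the sperm head to the tail, held 9 control peaks over its 164828 bp and 1 Znhit1-CKO peak, with 5377 and 191 bp covered and 4 differential regions. Hydin held 8 control and 3 Znhit1-CKO peaks, with 4808 and 1948 bp covered and 3 differential regions. At Fscn3, a testis fascin that bundles actin, the control list covered 1371 bp inside the gene and the Znhit1-CKO list 0. Cfap54, a central apparatus gene, went the other way, with 1234 bp in control and 1469 bp in Znhit1-CKO. None of these values has replicate error.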
